A study of Mus musculus with 6 samples.

Results

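A group of 430 genes, out of 10896 measured in macrophages of injured mouse muscle, was high in 1 of the 3 libraries labelled tamoxifen and low in the other two. Each gene was chosen by the same rule. Its level lay above all 3 oil libraries in the library labelled tamoxifen 1, and below all 3 oil libraries in both libraries labelled tamoxifen 2 and tamoxifen 3. The rule took genes with a unique name whose FPKM, averaged over the 6 libraries, reached 1 or more. FPKM counts the fragments of a gene per unit of transcript length and of library depth, so it is a level per length. The levels described here are the same values that chose the genes, so they are given as a description without a test. Among the genes farthest from oil are those of secreted and surface proteins of macrophages (Cd5l, Slamf7, Gdf3, Cd72), and others are interferon-inducible genes, parts of the MHC class I complex, Toll-like receptors, lysosomal enzymes and fatty acid-binding proteins. The functional lists used here hold 83 of the 430 genes, so most of the group is on none of them.

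The cells were macrophages sorted for CD45 and F4/80 from skeletal muscle 3 days after it was injured with barium chloride. All mice were of the Cx3cr1-CreER, Manf fl/fl genotype, in which the Cx3cr1 promoter drives a Cre recombinase that tamoxifen activates and Manf is flanked by recombination sites. The control mice carried the same alleles and were given oil, and no tamoxifen-treated mice without the floxed alleles are among the groups used here. There were 3 libraries of total RNA per group. Cells that do not use the Cx3cr1 promoter keep Manf in such mice, and the sources used here give neither the age and sex of the mice nor the mouse behind each library. Whether the spread between libraries lies between mice or is technical is therefore not known. The Y-linked genes Ddx3y, Eif2s3y, Kdm5d and Uty were at 0 in all 6 libraries.

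Manf encodes a secreted protein of the endoplasmic reticulum and is the gene the tamoxifen was meant to delete. It was at 29.5, 33.0 and 31.4 FPKM with oil and at 18.1 FPKM in tamoxifen 1, whereas tamoxifen 2 gave 42.5 and tamoxifen 3 gave 38.0 FPKM. Only the first of these went the way of its label, and the 430 genes follow the inverse of this order. The libraries labelled tamoxifen are therefore described separately, by their labels, and not as a mean, except in the limma fits given as background. The Manf values are levels of the gene as a whole and do not single out the part flanked by recombination sites. Cx3cr1 itself was at 51.7, 42.7 and 51.0 FPKM with oil and lower in all 3 libraries labelled tamoxifen, at 31.3, 9.82 and 24.6 FPKM. On a principal component analysis the first component, with 67.7% of the variance, put tamoxifen 1 at -6.80, beside the oil libraries at -22.5 to -13.5 and away from tamoxifen 2 and 3 at 34.3 and 22.1. On the second, with 10.4%, tamoxifen 1 stood alone at -17.2, against 0.42 to 8.88 for oil and 1.39 and 3.64 for tamoxifen 2 and 3. Depth recovered from the values lay between 18120333 and 25544666 fragments per library. In these sorted cells, fewer cells of a kind and less RNA per cell cannot be told apart.

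Macrophages that enter injured muscle first arise from blood monocytes and clear dead fibres, and later take on a form that supports the growth of new fibres. Cells in the later form load their lysosomes with debris, store and export lipid under the nuclear receptors LXR and PPAR-gamma, and secrete factors that act on muscle progenitors. Type I interferons act on macrophages through the STAT and IRF factors, which bind interferon-stimulated response elements in promoters and raise genes of antiviral defence, of nucleic acid sensing and of antigen presentation on MHC class I.

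The pattern held for few genes. The 430 genes made up 3.95% of those tested, and the inverse placement, with tamoxifen 1 below and tamoxifen 2 and 3 above all oil libraries, held for 481 genes or 4.41%. In 3093 genes (28.4%) tamoxifen 1 exceeded every oil library, and in 1761 of these tamoxifen 2 and 3 did so too. Tamoxifen 2 and 3 both lay below all oil libraries in 2982 genes (27.4%), and in 1504 of these tamoxifen 1 did so too. Genes on which all 3 libraries labelled tamoxifen stood on the same side of oil were thus more frequent than genes on which they were split. A comparison of all 3 with oil by limma-trend called none of 10920 genes (0%) at a Benjamini-Hochberg adjusted p of 0.05, and 2723 genes (24.9%) had an unadjusted p under 0.05. The limma-voom fit on recovered fragments also called none, of 9926 genes, with 2567 under an unadjusted p of 0.05. Without the library labelled tamoxifen 1, limma-trend called 3484 genes (31.9%), of which 1583 were lower. The 430 genes were chosen by low values in tamoxifen 2 and 3, which fixes their direction in this fit, so their part in these calls is not given.

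**Figure D1:**
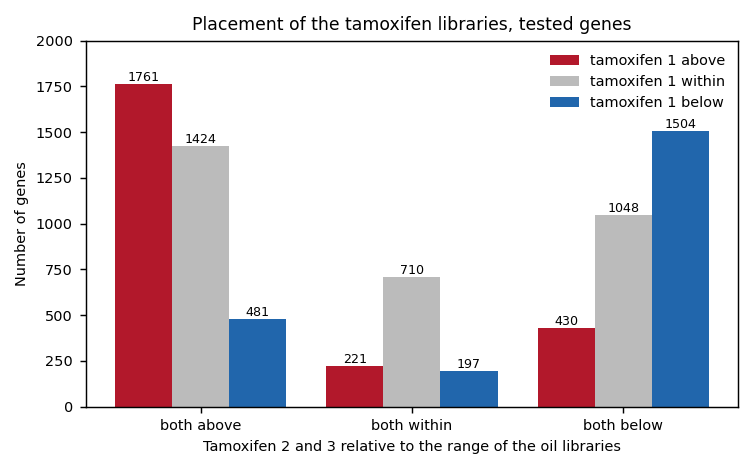
Number of tested genes by the place of the libraries relative to the 3 oil libraries. The horizontal axis gives the place of tamoxifen 2 and 3 where both fell in the same place, bar colours give that of tamoxifen 1, and the 430 genes described here are the red bar on the right; genes on which tamoxifen 2 and 3 fell in different places are not drawn.

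The distances from oil were small for most of the genes and were larger on the low side. On the log2(FPKM + 1) scale, the median gene of the 430 lay 0.12 above the oil mean in tamoxifen 1, and -0.30 and -0.23 from it in tamoxifen 2 and 3. Over all genes tested these medians were 0.00, 0.02 and 0.04. Within the 3 oil libraries the median of the 430 lay between -0.01 and 0.01 of the oil mean. The fall of the gene below the oil range was larger than its rise above it in 299 of the 430 genes, and smaller in 131. Tamoxifen 2 was the lowest of the 6 libraries in 303 genes and tamoxifen 3 in 127.

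**Figure D2:**
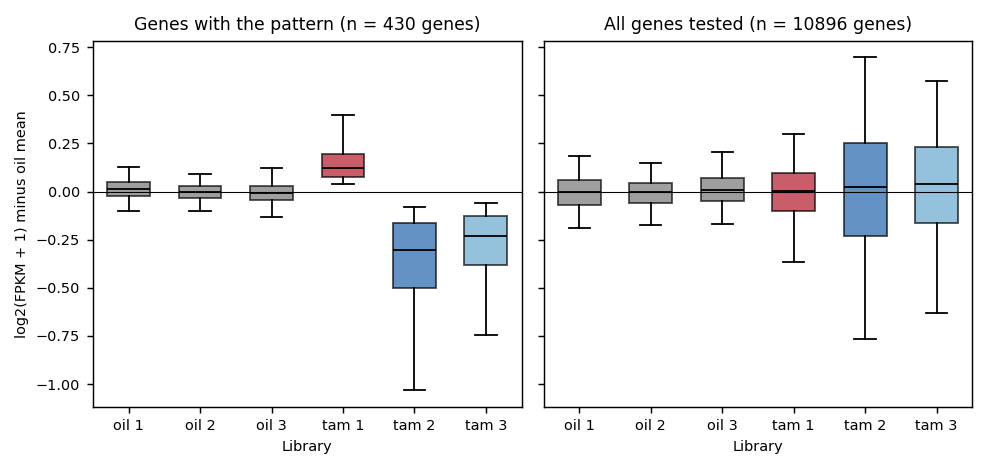
Difference of each library from the oil mean in log2(FPKM + 1), for the 430 genes with the pattern (left) and all 10896 genes tested (right). Boxes give the quartiles with the median as a line, and whiskers the 5th and 95th percentiles; on the left tamoxifen 1 has its median at 0.12 and tamoxifen 2 and 3 at -0.30 and -0.23.

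For each gene the smaller of its distances from oil, the rise of tamoxifen 1 above the highest oil library or the fall of tamoxifen 2 and 3 below the lowest, is called its margin. The median margin was 0.04 log2 units, 89 genes had a margin of at least 0.1, and 15 of at least 0.25. Whole numbers of fragments were recovered in every library for 398 of the 430 genes. Exact Poisson intervals at 95% of those counts, which cover counting error only, did not touch between tamoxifen 1 and any oil library, nor between any oil library and tamoxifen 2 or 3, in 39 genes. These 39 include Cd5l, Slamf7, Gdf3, Cd72, B2m, Ctss, Galns, Fabp5, Fcgr4 and Tlr7. Whole fragments were recovered for 9926 of all genes tested. The intervals come from the values that chose the genes, so being clear of them is a stricter form of the rule and not separate support. For the other 359 of these 398 genes the intervals touched across at least 1 of the gaps, which does not by itself place that gap within counting error. At the edge of the rule stood Dusp1, a phosphatase that turns off MAP kinases, at 418.3 FPKM in tamoxifen 1 against 418.2 in the highest oil library. Rnd2, a small GTPase, was at 4.86 FPKM both in tamoxifen 1 and in the highest oil library, with margin 1.02e-05. Just outside it, Gla (alpha-galactosidase A, a lysosomal enzyme) was at 135.727 FPKM in tamoxifen 2 against 135.726 in the lowest oil library. Naip6 missed the rule in tamoxifen 1, at 6.0777 FPKM against 6.0782 in the highest oil library.

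**Figure D3:**
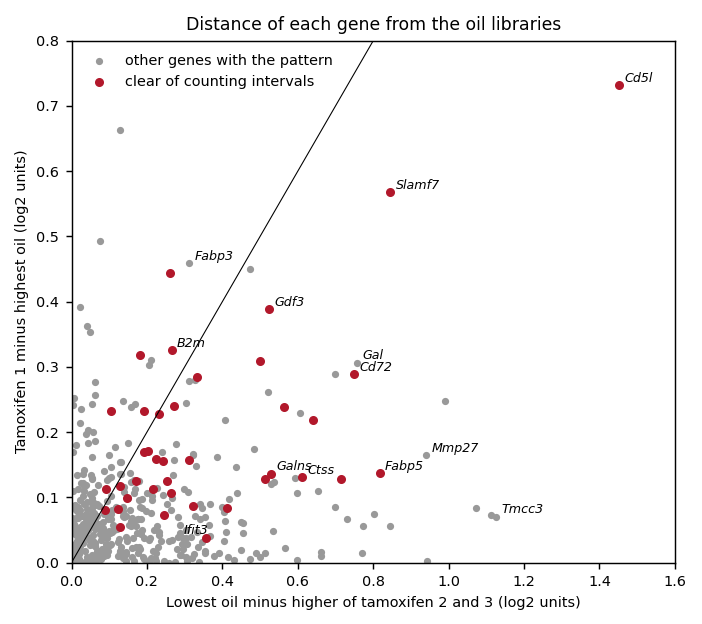
Each of the 430 genes by its fall (horizontal, lowest oil library minus the higher of tamoxifen 2 and 3) and its rise (vertical, tamoxifen 1 minus the highest oil library), both in log2(FPKM + 1) units. The line marks equal distances, red points are the 39 genes clear of counting intervals, and Cd5l stands farthest out with a rise of 0.73 and a fall of 1.45.

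Cd5l had the largest margin of all. It encodes CD5 antigen-like, a protein that macrophages secrete and that protects them from apoptosis, and is a known target of LXR (gene at chromosome 3, 87357881 to 87371073, plus strand, GRCm38). Its level was 56.4, 54.3 and 45.0 FPKM with oil, 94.3 FPKM in tamoxifen 1, and 9.68 and 15.8 FPKM in tamoxifen 2 and 3. Tamoxifen 1 thus stood 0.73 log2 units above the highest oil library, and the higher of tamoxifen 2 and 3 stood 1.45 below the lowest. Slamf7, a receptor of the SLAM family that binds itself on neighbouring leukocytes (chromosome 1, 171632403 to 171653035, minus strand), was second. It was at 23.2, 24.8 and 25.9 FPKM with oil, 38.9 in tamoxifen 1, and 10.9 and 12.5 in tamoxifen 2 and 3. The third, Gm37787, lies inside Slamf7 on the other strand. The sources used here do not say whether the counting used strand, so its level, 2.56 FPKM in tamoxifen 1 and 0.283 and 0.582 in tamoxifen 2 and 3, cannot be told apart from that of Slamf7.

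Gdf3, a ligand of the TGF-beta family that macrophages of regenerating mouse muscle secrete under PPAR-gamma, was at 42.8, 43.3 and 38.5 FPKM with oil. It was at 57.0 FPKM in tamoxifen 1 and at 24.01 and 26.5 FPKM in tamoxifen 2 and 3. Fabp3, a fatty acid-binding protein first known from heart and muscle, was at 16.8, 18.4 and 15.1 FPKM with oil, 25.6 in tamoxifen 1, and 9.52 and 11.95 in tamoxifen 2 and 3. Its rise in tamoxifen 1, 0.46 log2 units, was larger than its fall of 0.31, as in 131 genes in all, B2m and Ddx60 among them. Cd72, an inhibitory lectin-like receptor of B cells and macrophages, was at 23.3, 20.6 and 22.7 FPKM with oil, 28.7 in tamoxifen 1, and 6.55 and 11.8 in tamoxifen 2 and 3. In Gdf3, Fabp3 and Cd72, as in Cd5l and Slamf7, tamoxifen 2 was the lowest library.

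The other genes among the 12 with the largest margin were Ldlrad3, Gal, Tmem221, H2-T23, Gm24945 and Psrc1. Ldlrad3, which encodes a protein with LDL receptor class A domains, was at 2.59 to 2.88 FPKM with oil, 3.81 in tamoxifen 1, and 1.10 and 1.54 in tamoxifen 2 and 3. Gal, the neuropeptide galanin, was at 4.09, 2.31 and 2.64 FPKM with oil, 5.29 in tamoxifen 1, and 0.930 and 0.957 in tamoxifen 2 and 3. Among genes ranked by the distance of tamoxifen 1 from the higher of tamoxifen 2 and 3, Cd5l led with 2.50 log2 units, and Gm45095, Gal, Slamf7, Tmcc3, Gm13391 and Mmp27 were among those that followed, with 1.93 to 1.30. Mmp27, a matrix metalloproteinase, was at 8.12, 7.53 and 6.96 FPKM with oil, 9.22 in tamoxifen 1, and 3.15 and 2.83 in tamoxifen 2 and 3.

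The promoters of the leading genes are shown because the genes were placed alike in the 6 libraries, and those of H2-T23, Ifit3 and Ifit1 for the interferon-inducible genes among them. The last pair was chosen after values were seen. Windows run from 250 bases before to 50 after the start site that RefSeq lists (GRCm38.p6), 5′ to 3′ on the strand of the gene, and capitals mark motifs found on either strand.
Cd5l, chr3:87357631-87357930, plus strand: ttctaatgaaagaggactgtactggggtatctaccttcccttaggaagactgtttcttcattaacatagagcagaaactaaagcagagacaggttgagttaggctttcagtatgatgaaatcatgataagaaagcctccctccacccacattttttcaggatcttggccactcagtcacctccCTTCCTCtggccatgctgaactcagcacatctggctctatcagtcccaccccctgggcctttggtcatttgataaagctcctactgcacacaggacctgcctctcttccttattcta
Slamf7, chr1:171648950-171649249, minus strand: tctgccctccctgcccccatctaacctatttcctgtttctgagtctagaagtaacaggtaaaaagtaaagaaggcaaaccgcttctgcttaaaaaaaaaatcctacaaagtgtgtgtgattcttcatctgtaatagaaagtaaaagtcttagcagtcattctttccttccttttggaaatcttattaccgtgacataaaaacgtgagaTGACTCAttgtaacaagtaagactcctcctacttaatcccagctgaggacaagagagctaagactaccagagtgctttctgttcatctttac
Fabp3, chr4:130308488-130308787, plus strand: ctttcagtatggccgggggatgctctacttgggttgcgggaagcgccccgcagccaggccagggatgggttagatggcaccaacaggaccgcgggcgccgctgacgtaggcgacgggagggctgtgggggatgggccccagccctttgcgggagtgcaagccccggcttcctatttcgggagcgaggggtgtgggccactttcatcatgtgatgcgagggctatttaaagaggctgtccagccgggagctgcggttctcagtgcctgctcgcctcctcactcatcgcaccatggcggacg
H2-T23, chr17:36032652-36032951, minus strand: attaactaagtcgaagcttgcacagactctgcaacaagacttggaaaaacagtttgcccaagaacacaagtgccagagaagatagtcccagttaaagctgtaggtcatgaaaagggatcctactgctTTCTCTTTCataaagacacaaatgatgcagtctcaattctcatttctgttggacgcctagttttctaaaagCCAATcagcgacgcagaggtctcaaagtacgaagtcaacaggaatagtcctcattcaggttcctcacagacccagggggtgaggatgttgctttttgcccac
Ifit3, chr19:34583279-34583578, plus strand: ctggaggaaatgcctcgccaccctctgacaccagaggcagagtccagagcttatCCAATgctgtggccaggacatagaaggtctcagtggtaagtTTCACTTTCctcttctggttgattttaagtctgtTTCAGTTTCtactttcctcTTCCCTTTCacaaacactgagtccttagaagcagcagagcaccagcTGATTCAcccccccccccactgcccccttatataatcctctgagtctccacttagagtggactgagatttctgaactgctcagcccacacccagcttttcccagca
Ifit1, chr19:34640639-34640938, plus strand: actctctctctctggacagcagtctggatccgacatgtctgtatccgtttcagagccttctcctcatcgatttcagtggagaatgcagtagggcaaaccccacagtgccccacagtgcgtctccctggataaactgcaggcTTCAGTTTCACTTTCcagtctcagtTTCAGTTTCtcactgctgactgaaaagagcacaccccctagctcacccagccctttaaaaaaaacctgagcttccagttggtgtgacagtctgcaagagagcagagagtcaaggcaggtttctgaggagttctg
In Cd5l the capitals are the reverse complement of GAGGAAG, a core bound by the myeloid factor PU.1, 67 bases before the start site. Slamf7 holds an AP-1 motif (TGANTCA) 42 bases before its listed start, and Fabp3 none of the motifs searched. The Slamf7 window lies inside the gene span given above, so the region at the outer 5′ end of that span was not searched. H2-T23 holds, on its other strand, the core GAAANNGAA of the interferon-stimulated response element, and a CCAAT box. Ifit3 and Ifit1 hold 3 such cores each, which in Ifit1 partly overlap. The core is not limited to such genes. Ldlrad3, which is on neither interferon list and whose window is not printed, holds it 153 bases before its start, with a GC box. Gdf3 is named only.

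Of the 430 genes, 322 had a RefSeq window, and the first listed window of each gene was searched on both strands. The GAAANNGAA core stood in 39 of them (12.1%), against 593 of 7825 windows of genes tested (7.58%) and 8.57% of all 27025 windows. GAGGAAG stood in 62 of the 322 (19.3%), against 14.0% of genes tested and 13.5% of all windows. The GC box GGGCGG stood in 57.5% against 65.9%, and the CCAAT box in 34.8% against 38.8%. The E-box CACGTG stood in 9.32% against 11.0%, TGACGTCA, which CREB binds, in 3.42% against 3.37%, TGANTCA in 6.83% against 4.98%, and the ETS core CCGGAAG in 18.3% against 20.5%. No match counts for both GAGGAAG and CCGGAAG, and other motifs may overlap. A match is a description of the letters and not of binding.

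The shares of each list that follow stand beside the 3.95% of all genes tested that showed the pattern, and they come from the values that chose the genes. Among all genes tested, tamoxifen 1 was above all oil libraries in 28.4% and below in 28.5%. Tamoxifen 2 and 3 were both below in 27.4% and both above in 33.6%. The list of classical type I interferon response genes counted only 3 of its 34 tested members (8.82%) among the 430, Ifi44, Ifit3 and Ifit1, although tamoxifen 1 was above all oil libraries in 26 of the 34. Ifit3, whose product with that of Ifit1 binds foreign RNA, was at 42.2, 37.0 and 49.1 FPKM with oil, 50.5 in tamoxifen 1, and 22.5 and 30.2 in tamoxifen 2 and 3. Over the whole list the median gene lay 0.34 log2 units above the oil mean in tamoxifen 1, -0.18 from it in tamoxifen 2, and 0.03 in tamoxifen 3. Most of the list thus lay above oil in tamoxifen 1, but tamoxifen 2 and 3 were both below oil in only 7 of its genes and both above in 5. The Ifit1 rise, from at most 16.2 FPKM with oil to 16.5, was small, and neither Ifit1 nor Ifit3b kept the pattern when libraries were scaled to the same sum. Reads of Ifit3 and its near-identical copy Ifit3b may have been split or shared.

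A longer list of interferon-inducible genes, drawn up after values were seen, counted 19 of its 44 tested members (43.2%) among the 430, which is 4.42% of the 430 genes. These were Ddx60, Lgals3bp, Trim5, Trim25, Aim2, Epsti1, Znfx1, Parp11, Sp140, Irf2, Uba7, Oas1b, Trim14, Dtx3l, Batf2, Oas1c, Ifit3b, Trim26 and Pydc3. Ddx60, a helicase of antiviral RNA sensing, was at 3.65, 3.55 and 3.66 FPKM with oil, 5.35 in tamoxifen 1, and 1.94 and 2.80 in tamoxifen 2 and 3. Lgals3bp, a secreted protein that binds galectin-3, was at 228, 255 and 279.9 FPKM with oil, 331 in tamoxifen 1, and 162 and 189 in tamoxifen 2 and 3. Trim25, the ubiquitin ligase that activates the RNA sensor RIG-I, was at 74.6, 76.0 and 84.4 FPKM with oil, 91.3 in tamoxifen 1, and 70.0 and 69.6 in tamoxifen 2 and 3. In all 3 the groups of libraries did not overlap beyond counting error. Aim2, the sensor of cytosolic DNA, ranged from 13.7 to 15.3 FPKM with oil and was at 16.2 in tamoxifen 1 and at 12.3 and 11.7 in tamoxifen 2 and 3. Under each of 3 other scalings of the libraries 15 of the 19 kept the pattern. The GAAANNGAA core stood in the windows of all 3 classical genes and in 8 of the 15 windows found for the longer list, among them Ddx60, Trim5, Trim25 and Irf2.

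MHC class I molecules present peptides to CD8 T cells, as a heavy chain bound to beta-2 microglobulin. Of 24 tested genes of class I presentation, a list also drawn up after values were seen, 6 (25%) were among the 430: H2-T23, B2m, H2-K1, H2-D1, H2-T22 and Tapbp. B2m, the shared light chain and the most abundant of the 430 genes, was at 2985, 2987 and 3071 FPKM with oil, 3848 in tamoxifen 1, and 2468 and 2483 in tamoxifen 2 and 3. H2-T23, the heavy chain of the Qa-1 molecule, was at 84.4, 84.8 and 86.6 FPKM with oil, 106 in tamoxifen 1, and 66.8 and 63.3 in tamoxifen 2 and 3. H2-K1 was at 567, 578 and 556 FPKM with oil, 717 in tamoxifen 1, and 480.1 and 475 in tamoxifen 2 and 3. The oil libraries lay close together in all 3, and the libraries labelled tamoxifen stood apart on both sides. H2-D1 followed with 832 to 888 FPKM with oil, 1043 in tamoxifen 1, and 774 and 756 in tamoxifen 2 and 3. Class I heavy chains are near-identical, so their reads may be shared among them. Of the 6, only H2-T23, H2-K1 and H2-D1 kept the pattern under each of the 3 other scalings, and B2m lost it under quantile normalization. Tamoxifen 1 was above all oil libraries in 21 of the 24 genes. Tamoxifen 2 and 3 were both below in 7 and both above in 7, near the 27.4% and 33.6% of all genes tested. MHC class II genes gave no member out of 12 tested, and their median was below oil in each of the libraries labelled tamoxifen, at -0.50, -1.03 and -0.95 log2 units.

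Toll-like receptors were the other sensors in the group. Tlr3, Tlr7, Tlr9 and Tlr13 sense nucleic acids in endosomes, Tlr1 pairs with Tlr2 to sense bacterial lipopeptides, and Tlr4 senses lipopolysaccharide. These were 6 of 16 tested receptors and chaperones (37.5%) on a list drawn up after values were seen, and also all of the 6 among 40 genes (15.0%) of an earlier list of NF-kB and Toll-like receptor signalling. Tlr7 was at 38.8, 35.9 and 39.0 FPKM with oil, 42.7 in tamoxifen 1, and 25.8 and 29.9 in tamoxifen 2 and 3. Tlr13 was at 68.1, 63.9 and 63.5 FPKM with oil, 81.6 in tamoxifen 1, and 53.5 and 60.8 in tamoxifen 2 and 3. Tlr3 was at 3.20, 2.72 and 3.30 FPKM with oil, 3.84 in tamoxifen 1, and 1.82 and 2.15 in tamoxifen 2 and 3. Tlr7 was clear of counting intervals on both sides and Tlr3 was not, and for Tlr13 no whole fragments were recovered. Tlr4 stood closest to oil, going from at most 9.39 FPKM with oil to 9.43 in tamoxifen 1, against 8.13 and 8.73 in tamoxifen 2 and 3, and it lost the pattern when libraries were scaled to the same sum.

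**Figure D4:**
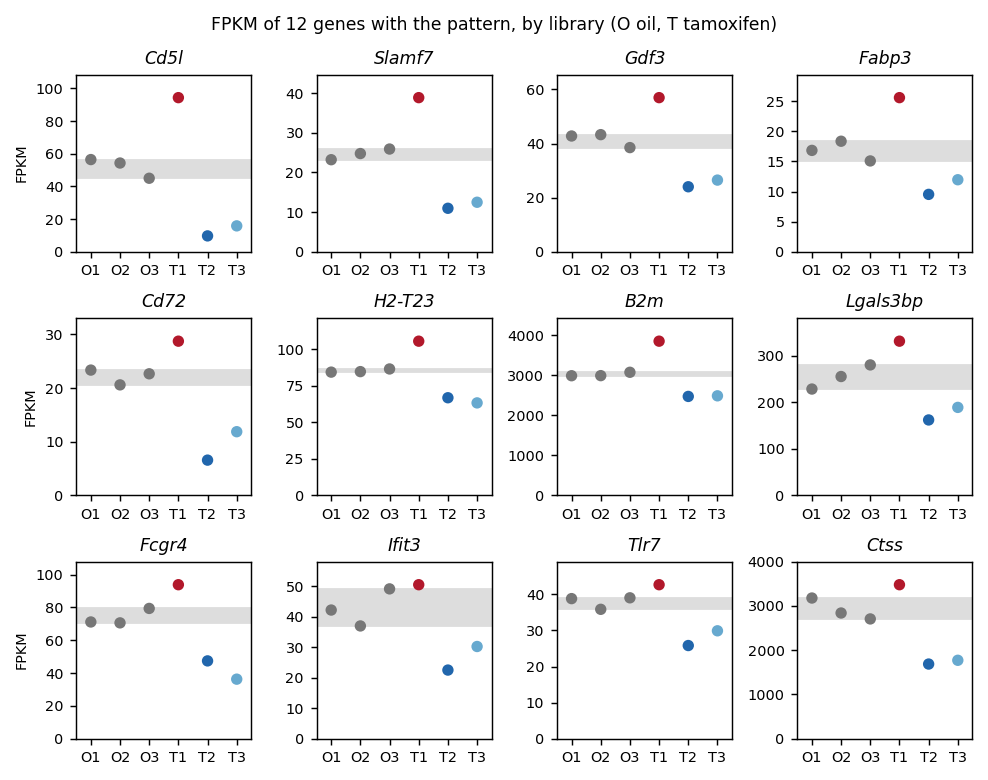
FPKM of 12 of the genes in each of the 6 libraries, on linear axes that start at 0. Grey points are the oil libraries and the grey band their range, red is tamoxifen 1, and the blue points are tamoxifen 2 and 3; in every panel the red point lies above the band and both blue points below it.

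Of the SLAM family, receptors that bind each other between leukocytes, 4 of 6 tested genes (66.7%) were among the 430. Beside Slamf7 these were Cd84, Cd48 and Ly9. Cd84 was at 51.9, 51.7 and 49.9 FPKM with oil, 56.8 in tamoxifen 1, and 32.6 and 34.7 in tamoxifen 2 and 3. Ly9 was at 54.9, 53.1 and 55.3 FPKM with oil, 55.7 in tamoxifen 1, and 28.5 and 33.2 in tamoxifen 2 and 3. In Ly9 the low side was wide and the high side was not, and it lost the pattern when libraries were scaled to the same sum, whereas the other 3 kept it under each scaling. Ly9, Slamf7, Gm37787 and Cd48 are direct neighbours among the tested genes on chromosome 1, from 171588624 to 171705258. The list of SLAM genes was drawn up after values were seen.

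The list of Fc and immunoglobulin-like receptors gave 4 of 25 tested genes (16%), Fcgr4, Cd47, Fcer1g and Clec12a, the last a C-type lectin-like receptor. Fcgr4, an activating receptor for IgG, was at 71.1, 70.6 and 79.4 FPKM with oil, 93.8 in tamoxifen 1, and 47.4 and 36.3 in tamoxifen 2 and 3. Fcer1g, the signalling chain that Fcgr4 needs, was at 824, 777 and 872 FPKM with oil, 928 in tamoxifen 1, and 759.6 and 752 in tamoxifen 2 and 3. Lair1, an inhibitory collagen receptor, was at 24.6, 24.04 and 21.8 FPKM with oil, 28.8 in tamoxifen 1, and 13.6 and 13.3 in tamoxifen 2 and 3. In Lair1, named after its values were seen, and in Fcgr4 tamoxifen 3 was the lowest library, unlike in most of the 430 genes.

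Lysosomal genes belonged to the group by their fall more than by their rise. Of 52 tested lysosomal hydrolases and membrane proteins 7 (13.5%) were among the 430, with Galns, Idua, Npc2, Cd68, Aga and Dnase2a among them. Tamoxifen 2 and 3 were both below all oil libraries in 44 of the 52, and in none both above, while tamoxifen 1 was above oil in 10 and below in 18. Galns, a sulfatase that breaks down keratan sulfate, was at 55.7, 56.0 and 55.4 FPKM with oil, 61.7 in tamoxifen 1, and 33.5 and 38.1 in tamoxifen 2 and 3. Npc2, which hands cholesterol out of the lysosome, was at 225, 214 and 223 FPKM with oil, 242 in tamoxifen 1, and 178 and 171 in tamoxifen 2 and 3. Cd68, a lysosomal glycoprotein used as a macrophage marker, was at 1159, 1214 and 1205 FPKM with oil, 1289 in tamoxifen 1, and 879 and 927 in tamoxifen 2 and 3. All 3 were clear of counting error on both sides.

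Cathepsins gave 4 of 15 tested genes (26.7%), Ctss, Ctse, Lgmn and Ctsz. Ctss, the cysteine protease that trims the invariant chain of MHC class II, was at 3178, 2839.9 and 2706 FPKM with oil, 3479 in tamoxifen 1, and 1687 and 1772 in tamoxifen 2 and 3. Lgmn, the asparagine-specific protease legumain, was at 1506, 1568 and 1545 FPKM with oil, 1609 in tamoxifen 1, and 1092 and 1175 in tamoxifen 2 and 3. The fall was the larger distance in both. Of the 4 only Ctse kept the pattern under each of the 3 other scalings. The vacuolar ATPase, which acidifies lysosomes, gave 3 of 18 tested genes (16.7%), Atp6v0d2, Atp6v1g1 and Atp6v1a. Atp6v0d2 varied within oil, at 31.3, 16.5 and 22.98 FPKM, and was at 32.9 in tamoxifen 1 and at 8.55 and 14.5 in tamoxifen 2 and 3.

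Lipid handling gave 5 of 30 tested genes (16.7%), Trem2, Fabp5, Fabp4, Soat1 and Pparg, and these kept the pattern under each of the 3 other scalings. Fabp5, a fatty acid-binding protein of macrophages and skin, was at 232, 217 and 234 FPKM with oil, 257 in tamoxifen 1, and 105 and 123 in tamoxifen 2 and 3. Pparg, the nuclear receptor of fatty acids that is known to act on Gdf3 and Fabp4 in macrophages, was at 11.0, 13.2 and 10.4 FPKM with oil, 17.1 in tamoxifen 1, and 7.46 and 10.01 in tamoxifen 2 and 3. Trem2, a lipid-sensing receptor, was at 4.63, 3.71 and 3.05 FPKM with oil, 5.24 in tamoxifen 1, and 2.22 in both tamoxifen 2 and 3. The tamoxifen 3 value of Pparg lay close under the lowest oil library. With Fabp3, 3 of the 4 fatty acid-binding protein genes tested (75%), a list drawn up after values were seen, were among the 430. Over the whole lipid list tamoxifen 2 and 3 were both below oil in 20 genes, while tamoxifen 1 was above it in 8 and below it in 10. Genes of cholesterol and fatty acid synthesis gave none of 24, and their median was 0.92 and 0.49 log2 units above oil in tamoxifen 2 and 3.

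Factors that macrophages supply to muscle repair gave 3 of 21 tested genes (14.3%), Gdf3, Hgf and Nampt. Hgf, hepatocyte growth factor, which wakes muscle stem cells, was at 9.78, 9.14 and 8.57 FPKM with oil, 10.8 in tamoxifen 1, and 4.50 and 5.35 in tamoxifen 2 and 3. Nampt, an enzyme of NAD synthesis that is also secreted, was at 49.2, 49.5 and 51.9 FPKM with oil, 54.4 in tamoxifen 1, and 49.1 and 46.3 in tamoxifen 2 and 3. Its fall in tamoxifen 2 was thus the smallest of these 3.

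Other named genes encode receptors and regulators. Folr2, a folate receptor of resident macrophages, was at 70.1, 65.6 and 67.3 FPKM with oil, 72.9 in tamoxifen 1, and 32.7 and 37.9 in tamoxifen 2 and 3. Csf3r, the G-CSF receptor, was at 27.3, 28.7 and 28.2 FPKM with oil, 30.3 in tamoxifen 1, and 15.2 and 14.6 in tamoxifen 2 and 3. Dnmt3a, a DNA methyltransferase, was at 15.1, 14.5 and 15.8 FPKM with oil, 15.9 in tamoxifen 1, and 7.42 and 9.86 in tamoxifen 2 and 3. Folr2 and Csf3r kept the pattern under each of the 3 other scalings, and Dnmt3a lost it when libraries were scaled to the same sum. Dnmt3a overlaps Dnmt3aos, also among the 430, on the opposite strand, so their reads may be shared. Growth factor and integrin signalling kinases gave 4 of 37 (10.8%), with Ptk2b, Pik3cb and Tsc2 among them, and chromatin genes 4 of 45 (8.89%), namely Arid1b, Kdm5a, Dnmt3a and Arid1a. Batf3, a transcription factor of dendritic cells, was at 2.87, 2.41 and 2.79 FPKM with oil, 2.93 in tamoxifen 1, and 0.933 and 1.31 in tamoxifen 2 and 3. The clock gene Per1, the glycolytic regulator Pfkfb3 and the kinase Clk1, which acts on splicing factors, each stood alone from its list.

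**Figure D5:**
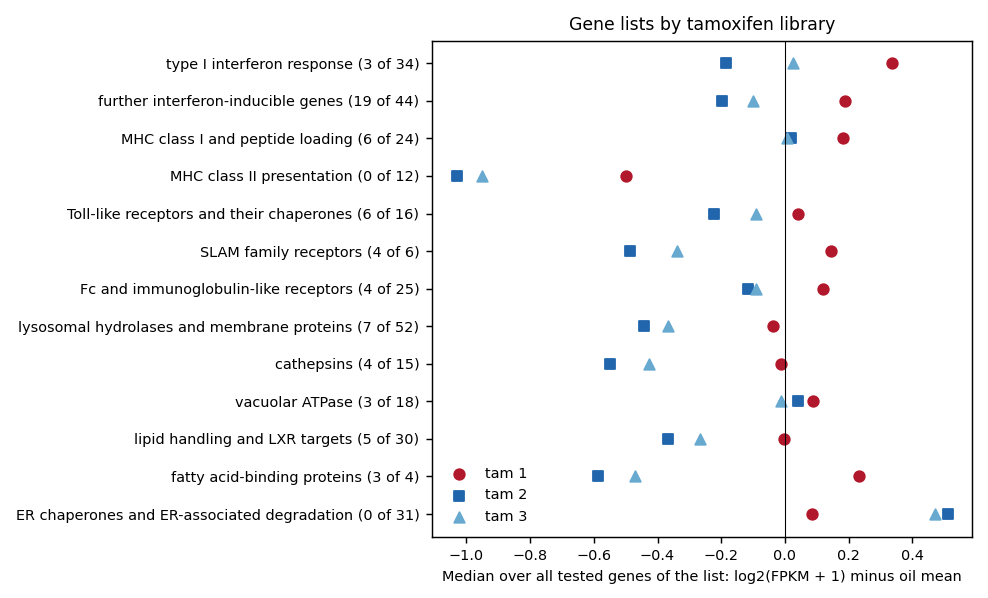
Median difference from the oil mean, in log2(FPKM + 1), over all tested genes of each list, for each library labelled tamoxifen; numbers in brackets give how many genes of the list are among the 430 and how many were tested. The type I interferon list lies at 0.34 in tamoxifen 1, and the lysosomal list at -0.04, -0.44 and -0.37 in tamoxifen 1, 2 and 3. The lists of further interferon-inducible genes, MHC class I, Toll-like receptors, SLAM receptors and fatty acid-binding proteins were drawn up after values were seen.

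Other lists gave no gene. None of 31 tested chaperones and degradation factors of the endoplasmic reticulum was among the 430, and 5 showed the inverse placement, as Manf did. None of 96 cytosolic ribosomal protein genes was among them, and 13 were inverse. None of 23 genes for the uptake of dead cells and none of 24 DNA repair genes followed either order. Families of zinc finger genes with 3 of 213, solute carriers with 4 of 169 and uncharacterised gene models with 34 of 1097 (3.10%) were at or under the 3.95% of all genes tested.

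By annotation, 425 of the 430 genes matched a gene model and 383 were protein-coding (90.1%, against 88.4% of the genes tested). There were 26 long noncoding RNAs, 11 pseudogenes and 4 small RNAs, against 341, 698 and 198 among the 10781 genes tested that matched a model. The median exon length was 4305 bases against 3988, and the median gene span 22715 against 19173 bases. Among 10755 adjacent pairs of tested genes, 20 were pairs of the 430, and these held 37 genes. Beside the SLAM genes they include H2-T23 with H2-T22 on chromosome 17, Ifit3b with Ifit1 on chromosome 19 and Oas1c with Oas1b on chromosome 5. An overlap with another annotated gene was found for 229 of the 430, on the opposite strand for 187, and their levels are uncertain to that extent. Such overlaps were not counted for the other genes tested.

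No list of cell type markers had a summed level that followed the rule with tamoxifen 2 and 3 below oil and tamoxifen 1 above. The 16 markers of Ly6C-high monocytes summed to 530 to 673 FPKM with oil and to 1176, 3706 and 1992 in tamoxifen 1, 2 and 3, and the 15 neutrophil markers to 51.5 to 55.8 with oil and to 56.5, 371 and 114. Sums of the 19 tissue-resident macrophage markers, at 2196 to 2515 FPKM with oil, were 1985, 1677 and 1508, and those of 11 measured macrophage and sort genes, at 11457 to 13188, were 10319, 9661 and 9334. Dendritic cell markers summed to 60.8 to 76.5 FPKM with oil and to 60.8, 34.4 and 37.9, and B cell markers to 29.7 to 36.2 and to 24.1, 9.32 and 11.5. No listed gene of these 6 lists was at 0 throughout. Fibroblast markers moved against the rule, with 7 of their 9 tested genes inverse, and summed to 28.3 to 31.3 FPKM with oil and to 19.3, 49.4 and 37.7. Csf3r, Folr2, Batf3 and Cd68 are each on 1 of these lists. Sums of resident, macrophage, dendritic and B cell markers were thus below the lowest oil library in each library labelled tamoxifen. For dendritic cell markers in tamoxifen 1 this distance was minute, at 60.7622 FPKM against 60.7724. The macrophage and sort genes did not all follow their sum. In tamoxifen 1, 6 of these 11 genes were below all oil libraries and 2 above, Cd68 among the latter. The part of the cell types on these lists, of Manf or of the library itself in the levels of the 430 genes was not tested.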

How the data were processed

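RNA of sorted macrophages was profiled in 3 oil and 3 tamoxifen libraries, grouped by title and treatment labels. The authors deposited FPKM per gene and library, a unit taken from the table's name and values. The submitters' processing notes name the build GRCm38.p6. Aligner, counter, annotation, strand setting and the treatment of multi-mapped reads were not given in the sources used here. Of 54183 lines, 382 without a name and 27 with a date were left out, at 0.253% to 0.289% of summed FPKM, and so were 124 repeated names for the rule. Whole fragments were recovered from FPKM and GENCODE M21 exon lengths, where 95.0% to 95.3% of values came out whole within 0.02 fragments. The background fit was limma-trend (limma 3.58.1, R 4.3.3) on log2(FPKM + 1), two-sided, which understates changes of low genes, on named lines with a mean of at least 1 FPKM. It was checked on simulated data in which all 3 libraries labelled tamoxifen changed alike, which does not cover their split here. Named genes were the 12 with the largest margin, the 8 with the largest distance between tamoxifen 1 and the higher of tamoxifen 2 and 3, the 8 most abundant, and up to 4 per list (2 per gene family), with the nearest genes on either side of the rule. Genes outside it (Lair1, Ifit3b, neighbouring genes, names that complete a count) were chosen after their values were seen. The members, the lists and the tests were chosen with earlier results of these data known, and 5 of the lists after values were seen here. A few genes that the rule for named genes takes are not reported here. Python 3.11 with pandas, SciPy and matplotlib was used.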

Additional observations from a re-analysis of the deposited data

How the results depend on the processing

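The rule is sensitive to small distances. The pattern held for 656 genes with no filter on low values, 257 with a filter at 5 FPKM, 89 with a margin of at least 0.1 log2 units and 39 clear of counting intervals, while other scalings gave 489 (median of ratios, 416 of them among the 430), 401 (same sum, 357) and 480 (quantile, 365). In all, 310 of the 430 kept the pattern under each of the 3 scalings and 4 (Stoml1, Dusp1, Dgke and Tmem259) under none. Leaving out 1 library gave 552 to 2982 genes, the highest without the library labelled tamoxifen 1, where the rule loses its condition on a rise, and 730 without oil 1. With 383 protein-coding genes, an alternative added after seeing the data, the count stayed within 1.5 times.

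The median gene in tamoxifen 1 lay 0.14 and 0.13 above oil with pseudocounts of 0.1 and 0.5, 0.11 at the same sum and 0.13 under quantile normalization. In tamoxifen 2 it lay at -0.37 and -0.33 with these pseudocounts and at -0.33, -0.33 and -0.31 under median of ratios, same sum and quantile normalization. In tamoxifen 3 it lay at -0.27, -0.25, -0.27 and -0.25 with these pseudocounts, median of ratios and quantile normalization. Without 1 oil library these medians were 0.11 to 0.13, -0.30 to -0.29, and -0.23. For the 98 named genes, the distance of tamoxifen 1 from the higher of tamoxifen 2 and 3 moved by more than its spread within oil in 182 of 686 recomputed values, and none changed sign.

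The limma-trend count of 0 became 1 with no filter, 5 with a filter at 5 FPKM and 0 to 3484 without 1 library, the highest without tamoxifen 1. With the replicate number as a block it became 33. Same-numbered libraries deviated together with correlations of 0.26, 0.09 and 0.004, against -0.26 to 0.17 between libraries of unlike number. These values do not settle whether the libraries were paired. The sources used here give no pairing, and the numbers were not taken as one. No explanation was tested for these shifts. For 359 of 398 genes the counting intervals touched across at least 1 gap, and few fragments were not separated from narrow gaps.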
